A study of Mus musculus with 15 samples.

Results

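The 10 neuropeptide genes Vip, Cck, Cartpt, Gal, Scg2, Sst, Pdyn, Penk, Npy and Tac1 were followed across 5 dissected regions of the embryonic mouse brain. They were taken by gene symbol from a table of 24264 genes, and all 10 were found in it. Each region gave 3 libraries: the midbrain was taken as a ventral and a dorsal part, beside the alar plate, the forebrain and the hindbrain. All tissue came from E12.5 (embryonic day) embryos of the C57bl/6 strain that carried GFP under the promoter of Th, the gene of the first enzyme of dopamine synthesis, so this reporter is shared by every region. Whole dissected tissue was used, with no sorting for GFP, and 200 ng of RNA went into each library. The labels leave unstated where along the brain the alar plate (the dorsal portion of the embryonic neural tube) was cut out, and whether libraries of a region came from separate embryos. The p-values therefore reflect nothing beyond the spread among these libraries, some of which may be technical.

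Neuropeptides are made as long precursors that are cut by convertases, trimmed and often amidated while they travel into dense core vesicles, where granins help to pack them. After release they act mostly on G protein coupled receptors, more slowly and over longer distances than small transmitters do. In the developing brain many of these genes are switched on in young neurons soon after they leave the cell cycle, and each marks particular neuron classes. Vip, Cck, Gal, Sst, Npy and Tac1 encode precursors of vasoactive intestinal peptide, cholecystokinin, galanin, somatostatin, neuropeptide Y and substance P. Penk and Pdyn encode the opioid precursors of enkephalins and dynorphins, Cartpt encodes CART peptide, and Scg2 encodes the granin secretogranin II, itself a source of the peptide secretoneurin.

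Levels are given as RPKM, the reads of a gene scaled for its length and for the reads of the library. The libraries held 8530913 to 12888725 reads in genes, recovered from the steps of the deposited values, and 3 reads were taken as the detection floor. Tcf7l2, a factor of the thalamus and pretectum, was at 403, 259 and 132 RPKM in forebrain 1, 2 and 3. Dorsal midbrain 3 also had 378 RPKM of Tcf7l2, against 22.9 and 18.9 in dorsal midbrain 1 and 2, and its expression profile correlated better with forebrain 1 (Pearson r across genes 0.978) than with its own region (0.967 and 0.971). Forebrain 1 correlated at 0.960 and 0.964 with its own region. Alar plate 3 correlated at 0.925 and 0.927 with its own region and had 23.2 RPKM of Tbr1 and 89.3 RPKM of Ttr, which were at most 0.0986 and 0.0556 RPKM in alar plate 1 and 2. Its shortest class of genes, which holds 6 of the 10 peptide genes, was shifted up by a median log2 of 0.70 against alar plate 1 and 2. Hindbrain 1 had 0.107 RPKM of the hindbrain gene Hoxa2 against 11.1 and 6.24 in hindbrain 2 and 3, and 39.7 RPKM of En1, a gene of the midbrain and anterior hindbrain. Counts below are also given without dorsal midbrain 3, forebrain 1 and alar plate 3, called the 3 divergent libraries. That choice was made with the data known.

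The upstream sequences of 4 peptide genes are shown because a cyclic AMP response element, the palindrome TGACGTCA, is a known control element of peptide genes such as rat somatostatin. Each runs 5′ to 3′ over the 250 bases before the start site in RefSeq (GRCm38.p6, another build than the mm9 alignment). Capitals mark the element in Scg2 (chr1:79440027-79440276, minus strand), Cartpt (chr13:99900684-99900933, minus strand) and Sst (chr16:23890845-23891094, minus strand), and its shorter form TGACG in Vip (chr10:5638968-5639217, plus strand).
Scg2: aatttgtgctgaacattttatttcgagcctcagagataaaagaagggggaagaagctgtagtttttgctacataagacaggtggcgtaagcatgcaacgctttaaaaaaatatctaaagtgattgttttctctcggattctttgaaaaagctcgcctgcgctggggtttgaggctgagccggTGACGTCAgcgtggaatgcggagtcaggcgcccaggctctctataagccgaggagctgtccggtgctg
Cartpt: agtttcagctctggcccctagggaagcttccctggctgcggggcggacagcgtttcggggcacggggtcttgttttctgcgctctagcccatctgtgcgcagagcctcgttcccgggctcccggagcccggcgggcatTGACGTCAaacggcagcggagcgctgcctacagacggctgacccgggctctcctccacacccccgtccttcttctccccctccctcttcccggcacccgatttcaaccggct
Sst: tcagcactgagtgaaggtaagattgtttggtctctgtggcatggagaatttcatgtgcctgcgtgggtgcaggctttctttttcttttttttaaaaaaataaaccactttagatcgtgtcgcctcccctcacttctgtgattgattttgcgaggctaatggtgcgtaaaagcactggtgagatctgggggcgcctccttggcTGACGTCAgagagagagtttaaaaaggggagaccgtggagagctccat
Vip: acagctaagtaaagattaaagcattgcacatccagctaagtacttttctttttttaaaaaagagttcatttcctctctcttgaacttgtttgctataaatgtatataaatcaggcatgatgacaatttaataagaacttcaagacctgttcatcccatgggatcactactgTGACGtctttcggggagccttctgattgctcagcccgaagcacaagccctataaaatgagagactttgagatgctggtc
RefSeq windows of 300 bases (250 before and 50 after the start) were at hand for 9 of the 10 genes, Penk being the exception. The full element, searched on both strands, was in 3 of the 9, against 1.79% of 32851 windows of all genes. The shorter TGACG, which the full element contains, was found on either strand in 7 of the 9, against 20.8% of all windows. The element begins at base 183 in Scg2, 139 in Cartpt and 203 in Sst, counted from the first base shown. These 3 genes had different regional patterns, as the levels below show, and a match is a description of the letters, not evidence of binding.

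Of the 10 genes, 7 differed among the 5 regions in limma's F test on log2(RPKM + 1) with an adjusted p under 0.05, a threshold that 33.7% of the 13745 genes tested passed. They were Vip, Scg2, Pdyn, Cck, Tac1, Cartpt and Npy, while Gal, Sst and Penk missed it (adjusted p = 0.0539, 0.0800 and 0.205). Without the 3 divergent libraries 9 of the 10 passed, but so did 70.7% of all genes. All 10 passed the filter of at least 1 RPKM in 3 libraries. Vip did so through its ventral midbrain libraries alone, and so had to differ. Against the mean of the other 4 regions, 4 genes were called higher in ventral midbrain (background 7.43% of genes), 1 in alar plate (1.24%), 2 in hindbrain (4.03%) and none in dorsal midbrain or forebrain (18.2% and 0.618%), where 0 and 1 of the limma tests had an unadjusted p under 0.05. One gene was called lower in ventral midbrain (background 3.16%), 2 in dorsal midbrain (13.8%), 2 in alar plate (3.41%), 1 in forebrain (2.3%) and 2 in hindbrain (2.27%). Vip is in the first of these counts for ventral midbrain and in the counts of lower genes for the other 4 regions. Without it, 6 of 9 genes passed the F test, 3 of 9 were called higher in ventral midbrain, and 1 was called lower in each of dorsal midbrain, alar plate and hindbrain. None was then called lower in forebrain, where 2 had an unadjusted p under 0.05 in limma. Over the 10 pairs of regions, 25 of 100 gene by pair tests were called, or 21 of 90 without Vip, against 12.4% over all genes. Ventral midbrain was called apart for 3 genes from dorsal midbrain (background 23.9%), 6 from alar plate (14.2%), 3 from forebrain (8.33%) and 3 from hindbrain (3.8%), each with Vip among them. Hindbrain was called apart for 3 genes from dorsal midbrain (32.1%) and 4 from alar plate (9.97%). Forebrain was called apart for 2 genes from hindbrain (2.7%), 1 from dorsal midbrain (27.3%) and none from alar plate (0.0946%), and no gene was called between dorsal midbrain and alar plate (1.67%). At an unadjusted p under 0.05 limma gave 5 genes for forebrain against alar plate and 3 for dorsal midbrain against alar plate, with no other tool run. In whole tissue, fewer cells of a type and less RNA per cell cannot be told apart.

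**Figure D1:**
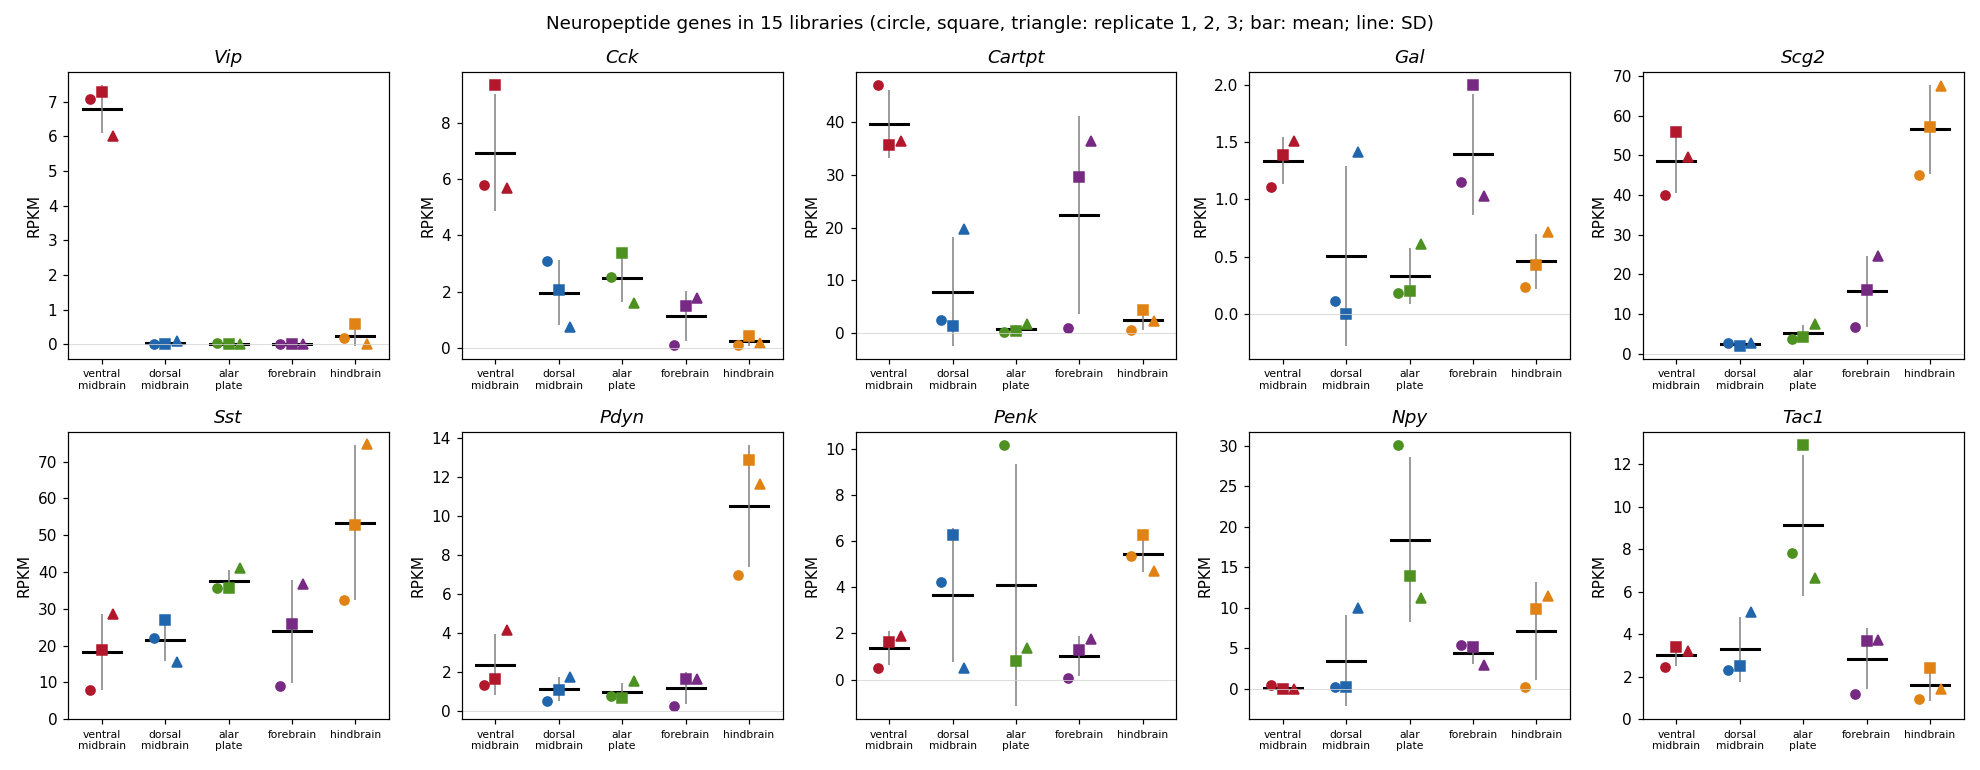
RPKM (vertical axis, from 0, one scale per gene) of the 10 peptide genes in the 15 libraries, by region. Points are libraries, with circle, square and triangle for replicate 1, 2 and 3, horizontal bars are means and vertical lines SDs. Vip is at 6.00 to 7.29 RPKM in ventral midbrain and at most 0.577 RPKM elsewhere, while Scg2 is high in ventral midbrain and hindbrain, and Cartpt, Npy and Penk each have single libraries far from the others of their region.

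Vip was present in ventral midbrain and close to undetected elsewhere. It had 7.09, 7.29 and 6.00 RPKM in ventral midbrain 1, 2 and 3, from 104, 139 and 105 reads. The hindbrain had 0.175, 0.577 and 0 RPKM, from 3, 11 and 0 reads, and the other 9 libraries held at most 2 reads each. The forebrain libraries had no read at all, so ventral midbrain was at least 38.0-fold higher than the level that 3 reads per forebrain library would give. The groups did not overlap, and the log2 difference of ventral midbrain from the other 4 regions was 2.87 ± 0.12 (SE), given with no test because the filter had fixed that Vip differed. The calls of lower Vip in the other 4 regions compare levels near 0 with a mean that includes ventral midbrain, and they count as no support either. The hindbrain call was lost without dorsal midbrain 1 or 2, forebrain 2, or hindbrain 1 or 3 (limma adjusted p 0.0523 to 0.277), with a pseudocount of 0.1 or 0.5 (0.776 and 0.136) and with a filter of 5 RPKM (0.231). The alar plate call was lost with a pseudocount of 0.1 and with the 5 RPKM filter (0.0537 and 0.0609), and the forebrain call with that filter (0.0847). Leaving out any ventral midbrain library takes Vip below the filter, so it then has no test.

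The genes whose levels ran most nearly parallel to Vip over the 15 libraries, on the log2(RPKM + 1) scale, were Slc5a7 (Pearson r 0.991), Kcnab1 (0.987) and Chrna6 (0.985). Slc5a7, the choline transporter of cholinergic neurons, was at 4.70 to 6.32 RPKM in ventral midbrain and at most 0.614 RPKM elsewhere. Chrna6, a nicotinic acetylcholine receptor subunit, was at 6.79 to 10.8 RPKM in ventral midbrain and at most 0.192 RPKM elsewhere. Vip was close to 0 outside ventral midbrain, so these correlations mostly set 3 libraries against the other 12. Genes of other neurons share that pattern, as Th did at 68.9 to 81.7 RPKM in ventral midbrain and at most 6.39 RPKM elsewhere. The ventral midbrain libraries share their dissection, and the part of cholinergic or other neurons in the Vip level was not tested. Of the cranial ganglion and sensory neuron markers, 2 of 8 tested were called higher in ventral midbrain (7.43% of all genes), with a summed level of 62.0 to 66.3 RPKM there. That sum was 8.06 to 16.3 RPKM in hindbrain, 19.7 to 21.6 in forebrain, 62.0 to 91.1 in alar plate and 21.1 to 94.4 in dorsal midbrain.

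The receptors of Vip had other patterns. Vipr2 was highest in dorsal midbrain, at 3.57, 3.21 and 0.920 RPKM, against 0.700, 0.465 and 0.640 RPKM in ventral midbrain. The call in dorsal midbrain was a log2 difference of 0.98 ± 0.21 (SE; limma adjusted p = 0.00538), with dorsal midbrain 3 well below its pair. Adcyap1r1, the PACAP receptor of the same family, was higher in ventral midbrain, as Vip was, at 55.9 ± 2.5 RPKM (SD, n = 3), against 18.3 to 47.3 RPKM as means of the other regions. It was also called higher in hindbrain (log2 difference 0.78 ± 0.20, SE; limma adjusted p = 0.0355). Vipr1 stayed at or under 1.31 RPKM in every library.

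Cck, the cholecystokinin gene, was highest in ventral midbrain and lowest in hindbrain. It had 5.78, 9.33 and 5.67 RPKM in ventral midbrain, against 3.08, 2.07 and 0.772 in dorsal midbrain, 2.52, 3.37 and 1.62 in alar plate, 0.129, 1.49 and 1.78 in forebrain, and 0.121, 0.434 and 0.206 in hindbrain. Every ventral midbrain library lay above the other 12, as was so for Vip and for 4.89% of all genes tested. The log2 difference was 1.81 ± 0.28 (SE; limma adjusted p = 0.000902), and ventral midbrain was called higher than each other region in turn. Hindbrain was called lower than the other 4, at -1.49 ± 0.28 (adjusted p = 0.00677), from 1, 4 and 2 reads, a call that was lost without hindbrain 3 (adjusted p = 0.0529). The steps between alar plate, dorsal midbrain and forebrain did not pass the test. Dyrk3, Msh3 and Pdcd4 followed Cck most closely (Pearson r 0.911, 0.863 and 0.859 over the 15 libraries).

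Cckar, one of the cholecystokinin receptors, was higher at both ends of that order. It had 3.11, 2.59 and 3.68 RPKM in ventral midbrain and 4.83, 3.38 and 4.28 RPKM in hindbrain, where Cck was lowest, and no more than 0.638 RPKM in the other 9 libraries. The log2 differences were 1.16 ± 0.12 in ventral midbrain and 1.56 ± 0.12 in hindbrain (SE). They are given with no test because Cckar passed the filter through these regions alone. Cckbr did not exceed 0.910 RPKM in any library and was not tested.

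Cartpt, which encodes a peptide best known from feeding and reward circuits, was high in all ventral midbrain libraries and in some libraries of other regions. It had 47.1, 35.6 and 36.4 RPKM in ventral midbrain, against 0.940, 29.7 and 36.4 in forebrain, 2.48, 1.34 and 19.7 in dorsal midbrain, 0.586, 4.38 and 2.33 in hindbrain, and 0.226, 0.330 and 1.71 in alar plate. Forebrain 3 reached the ventral midbrain range, so the groups overlapped. Dorsal midbrain 3 and forebrain 1 were the libraries that departed from their pairs, in opposite directions. The log2 difference of ventral midbrain from the other 4 was 3.21 ± 0.79 (SE; limma adjusted p = 0.0191), and alar plate was the one region from which it was called different alone (4.62, adjusted p = 0.00840). The call was lost without ventral midbrain 1, 2 or 3, with adjusted p between 0.0797 and 0.101, and was kept without the 3 divergent libraries (3.20, adjusted p = 1.21e-05).

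Nr4a2, a transcription factor of midbrain dopaminergic neurons, was among the 3 genes most like Cartpt (Pearson r 0.869), with Klhl1 (0.881) and Lmx1a (0.879), a floor plate factor. Nr4a2 had 92.7, 99.7 and 89.1 RPKM in ventral midbrain, 8.15, 48.2 and 60.6 in forebrain, and 0.827, 0.781 and 32.6 in dorsal midbrain. Like Cartpt, it was higher in dorsal midbrain 3 than in dorsal midbrain 1 and 2 and lower in forebrain 1 than in forebrain 2 and 3. All 8 tested markers of ventral midbrain were called higher there (7.43% of all genes), with a summed level of 434 to 474 RPKM. That sum was 10.8, 81.9 and 135 RPKM in forebrain 1, 2 and 3, and 2.37, 2.71 and 34.7 RPKM in dorsal midbrain 1, 2 and 3. Nr4a2 alone gave 32.6 RPKM of the sum in dorsal midbrain 3, where Th was at 0.793 and Foxa2 at 0.0389 RPKM. In forebrain 2 and 3 most of the sum came from Nr4a2, from Foxa2 at 16.2 and 20.6 RPKM, and from Lmx1a at 6.93 and 41.3 RPKM. The remaining markers, Th, Pitx3, En1, Corin and Slc6a3, were each at most 6.39 RPKM in any forebrain library. In hindbrain 1, 2 and 3 the sum was 78.0, 55.8 and 63.6 RPKM. Nr4a2 was at 5.99, 25.1 and 35.1 RPKM there, while Cartpt was at most 4.38 RPKM. The part of ventral midbrain tissue in the Cartpt levels was not tested.

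**Figure D2:**
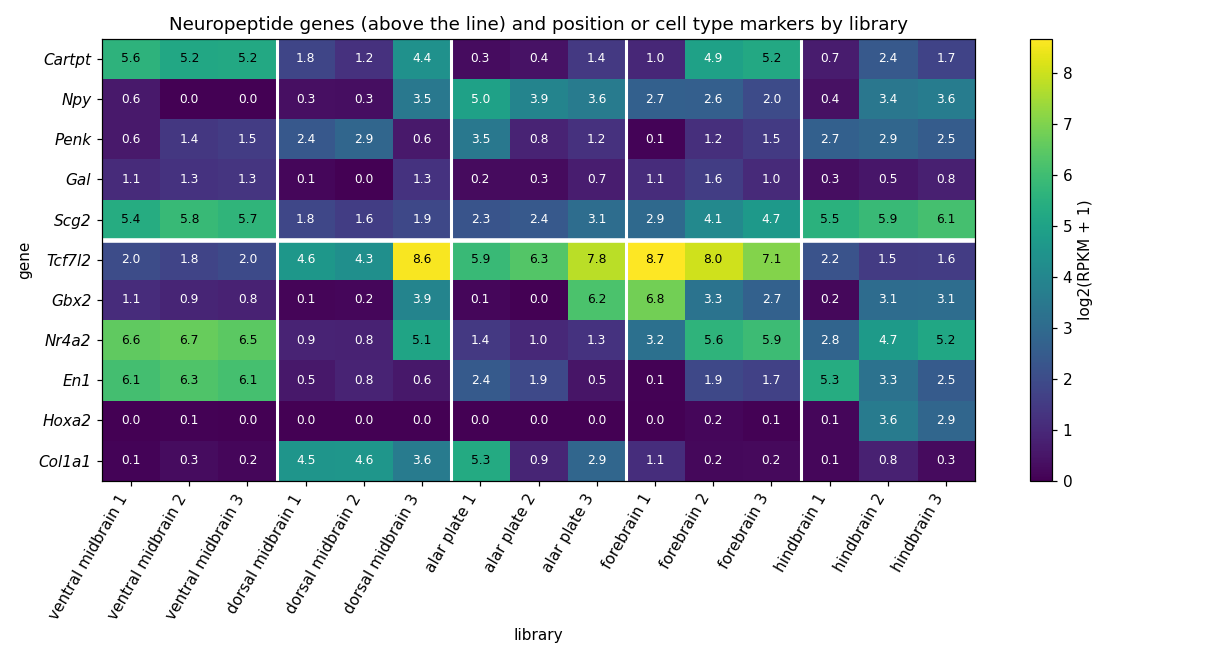
Levels as log2(RPKM + 1) (colour and printed value) of 5 peptide genes, above the white line, and 6 position or cell type markers, below it, in each of the 15 libraries. Cartpt and Nr4a2 are both raised in dorsal midbrain 3 and low in forebrain 1, and Tcf7l2 is highest in forebrain 1 and dorsal midbrain 3.

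Gal, the galanin gene, was weak everywhere. It had 1.11, 1.39 and 1.51 RPKM in ventral midbrain, 1.15, 2.0 and 1.03 in forebrain, 0.108, 0 and 1.41 in dorsal midbrain, 0.184, 0.201 and 0.612 in alar plate, and 0.238, 0.427 and 0.710 in hindbrain, from 0 to 15 reads. Dorsal midbrain 3 was again the library apart from its pair. No region was called different from the other 4, with log2 differences of 0.56 ± 0.22 in ventral midbrain and 0.58 ± 0.22 in forebrain (SE; limma adjusted p = 0.148 and 0.172). Without the 3 divergent libraries Gal was called in ventral midbrain, dorsal midbrain and forebrain, where 33.5%, 64.5% and 43.7% of all genes were called. Galr1, Galr2 and Galr3 were at or under 0.800 RPKM in every library and were not tested. Sema3c, Pcdh9 and Ptprn followed Gal most closely (Pearson r 0.902, 0.858 and 0.855).

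Scg2, the granin of the set, divided the regions into high and low ones. It had 40.1, 56.0 and 49.6 RPKM in ventral midbrain and 45.1, 57.0 and 67.5 in hindbrain, against 6.69, 16.0 and 24.6 in forebrain, 3.78, 4.29 and 7.45 in alar plate, and 2.57, 1.99 and 2.65 in dorsal midbrain. All ventral midbrain and hindbrain libraries lay above all others, and the 3 dorsal midbrain libraries lay below the other 12, which held for 2.38% of genes tested. The log2 difference from the other 4 regions was 2.10 ± 0.27 in ventral midbrain, 2.36 ± 0.27 in hindbrain, -1.70 ± 0.27 in alar plate and -2.72 ± 0.27 in dorsal midbrain (SE; limma adjusted p = 0.000221, 0.000184, 0.00390 and 6.69e-05). In the order of levels, ventral midbrain and hindbrain overlapped and were not called apart (-0.21 ± 0.35, SE; limma adjusted p = 0.942). The dorsal midbrain libraries all lay below those of alar plate, but that step missed the threshold (-0.82 ± 0.35, adjusted p = 0.193), while forebrain was called apart from hindbrain, ventral midbrain and dorsal midbrain. The calls against the other 4 were kept without the 3 divergent libraries, at 2.06, 2.32, -2.05 and -2.83. The genes most like Scg2 were Cdc42ep3, Sulf1 and Nrp2, with Pearson r of 0.971, 0.969 and 0.967 over the 15 libraries.

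Other granins were less uneven. Chgb, chromogranin B, had 124, 139 and 123 RPKM in ventral midbrain and 88.3, 69.2 and 82.6 in hindbrain, against 21.4 to 49.2 RPKM in the other 9 libraries. Its log2 difference was 1.70 ± 0.17 in ventral midbrain and 0.84 ± 0.17 in hindbrain (SE; limma adjusted p = 2.76e-05 and 0.0118). Of the 7 granins, Scg2 included, 2 were called higher in ventral midbrain (7.43% of all genes), 2 higher in hindbrain (4.03%), 2 lower in alar plate (3.41%) and 6 lower in dorsal midbrain (13.8%). Their median log2 difference in dorsal midbrain was -0.67, against 0.05 over all genes. Pcsk1n, Chga, Scg3 and Scg5 were lower there by -1.23, -0.67, -0.52 and -0.37.

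In dorsal midbrain the pan-neuronal markers were also lower, 9 of 15 tested (13.8% of all genes), with a summed level of 2268 to 3063 RPKM, against 2900 to 3977 RPKM across the other 12 libraries. Meninges and mesenchyme markers were higher there, 7 of 9 tested (18.2% of all genes), with sums of 123, 130 and 69.3 RPKM. In ventral midbrain, forebrain and hindbrain those sums were 4.76 to 19.9 RPKM, and in alar plate 1, 2 and 3 they were 169, 9.32 and 55.2 RPKM. The part of this tissue makeup in the granin values was not tested.

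Sst, the somatostatin gene, was expressed in all regions and had the highest average of the 10 genes in alar plate, dorsal midbrain and forebrain. It had 32.5, 52.9 and 74.7 RPKM in hindbrain, against 35.7, 35.8 and 41.0 in alar plate, 9.03, 25.7 and 36.8 in forebrain, 22.0, 26.8 and 15.6 in dorsal midbrain, and 7.77, 18.8 and 28.4 in ventral midbrain. The groups overlapped, and the hindbrain difference of 1.12 ± 0.39 on the log2 scale missed the threshold (SE; limma adjusted p = 0.103). It was called in hindbrain without the 3 divergent libraries, where 37.8% of genes were called. Its closest followers, Sdr39u1, Wasf1 and Lhx5, had a Pearson r of 0.859, 0.771 and 0.768. The receptor gene Sstr2 had 18.5, 15.6 and 14.8 RPKM in hindbrain, above the 1.86 to 7.70 RPKM of the other 12 libraries, with a log2 difference of 1.87 ± 0.19 (adjusted p = 5.35e-05). Sstr1 had 2.49, 2.86 and 2.81 RPKM in ventral midbrain and was called higher there (1.07 ± 0.30, adjusted p = 0.0352), although forebrain 2 and 3 had 3.67 and 3.49 RPKM.

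Pdyn, the dynorphin precursor, marked hindbrain. It had 6.96, 12.9 and 11.7 RPKM in hindbrain, against 1.31, 1.61 and 4.17 in ventral midbrain, 0.240, 1.63 and 1.65 in forebrain, 0.510, 1.06 and 1.74 in dorsal midbrain, and 0.780, 0.664 and 1.5 in alar plate. All hindbrain libraries lay above the other 12, which held for 2.34% of genes tested. The log2 difference was 2.31 ± 0.29 (SE; limma adjusted p = 0.000345), hindbrain was called apart from each other region, and those 4 were not called apart from one another. Otp, a homeodomain factor, had the pattern most like it (Pearson r 0.926), with 57.8, 103 and 95.6 RPKM in hindbrain and at most 1.58 RPKM elsewhere, followed by Bhlhe22 (0.924). Hindbrain 1, which lacked Hoxa2, had the lowest Pdyn and the lowest Otp of its region. Oprk1, the gene of the dynorphin receptor, was at or under 0.619 RPKM in every library.

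Penk, the enkephalin precursor, differed widely between libraries of the same region. It had 5.34, 6.27 and 4.72 RPKM in hindbrain, against 4.23, 6.26 and 0.516 in dorsal midbrain, 10.1, 0.797 and 1.36 in alar plate, 0.513, 1.64 and 1.91 in ventral midbrain, and 0.0673, 1.27 and 1.74 in forebrain. Alar plate 1 was the highest library of all, and the 3 hindbrain libraries were close together. No difference was called, the nearest being hindbrain at 1.21 ± 0.53 on the log2 scale (SE; limma adjusted p = 0.177). The mesenchymal gene Col1a1 had 38.3, 0.854 and 6.21 RPKM in alar plate 1, 2 and 3 and 21.7, 22.5 and 11.1 RPKM in dorsal midbrain 1, 2 and 3. In hindbrain, where Penk was steady, Col1a1 was at most 0.747 RPKM. The part of mesenchymal tissue in the dorsal midbrain and alar plate levels of Penk was not tested. Sfrp1, Tbl1xr1 and Gpr180 were the genes most like Penk, at a Pearson r of 0.787, 0.735 and 0.724. The opioid receptor genes Oprd1 and Oprm1 were at or under 0.0891 and 0.119 RPKM in every library and were not tested.

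Npy, known for its role in feeding, was highest in alar plate and close to undetected in ventral midbrain. It had 0.516, 0 and 0 RPKM in ventral midbrain, against 30.0, 14.0 and 11.2 in alar plate, 0.295, 9.79 and 11.4 in hindbrain, 5.36, 5.11 and 2.94 in forebrain, and 0.268, 0.253 and 9.94 in dorsal midbrain. Dorsal midbrain 3 and hindbrain 1 departed from their pairs, and the ventral midbrain range overlapped that of hindbrain and dorsal midbrain. The log2 difference of ventral midbrain from the other 4 was -2.41 ± 0.69 (SE; limma adjusted p = 0.0409), while the difference from alar plate alone was -3.96 ± 0.87 (adjusted p = 0.00917). The call against the other 4 was lost with no filter, with the replicate number as a block (adjusted p = 0.0567 and 0.0572), and when any ventral midbrain or forebrain library, alar plate 1 or 2, or hindbrain 2 or 3 was left out (adjusted p 0.0502 to 0.182). Alar plate against the other 4 stood at 2.54 ± 0.69, short of the threshold (adjusted p = 0.0532), and it was called without the 3 divergent libraries, where 12.3% of genes were. Zfp13, Plk1s1 and Fign were the genes most like Npy (Pearson r 0.887, 0.829 and 0.810). Npy1r, a neuropeptide Y receptor gene, ran at 1.89, 2.28 and 2.72 RPKM in ventral midbrain, above the 0.0983 to 1.02 RPKM of the other 12 libraries. Its log2 difference there was 1.09 ± 0.19 (SE), given with no test because Npy1r passed the filter mainly through these libraries.

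Tac1, the precursor of substance P, was highest in alar plate. It had 7.83, 12.9 and 6.64 RPKM in alar plate, against 2.29, 2.52 and 5.04 in dorsal midbrain, 2.44, 3.39 and 3.20 in ventral midbrain, 1.17, 3.66 and 3.70 in forebrain, and 0.922, 2.41 and 1.43 in hindbrain. All alar plate libraries lay above the other 12, which held for 0.466% of genes tested. The log2 difference was 1.48 ± 0.27 (SE; limma adjusted p = 0.00762), and 1.64 without the 3 divergent libraries. Alar plate was called apart from ventral midbrain and hindbrain alone, and hindbrain against the other 4 was short of the threshold at -0.97 ± 0.27 (adjusted p = 0.0504). Car14, Fzd8 and Nfkbib were the genes most like Tac1 (Pearson r 0.801, 0.774 and 0.771). Tacr1, the substance P receptor gene, was higher in ventral midbrain, at 16.9, 14.2 and 13.7 RPKM, and in hindbrain, at 5.97, 4.60 and 4.37 RPKM. In alar plate, where Tac1 was highest, Tacr1 was lower, at 0.745, 0.784 and 0.324 RPKM. It was about as low in dorsal midbrain, at 0.253, 0.732 and 0.777 RPKM. Its log2 differences were 2.67 ± 0.22 in ventral midbrain, 0.90 ± 0.22 in hindbrain, -1.46 ± 0.22 in alar plate and -1.50 ± 0.22 in dorsal midbrain (limma adjusted p = 4.86e-06, 0.0299, 0.00270 and 0.000889).

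**Figure D3:**
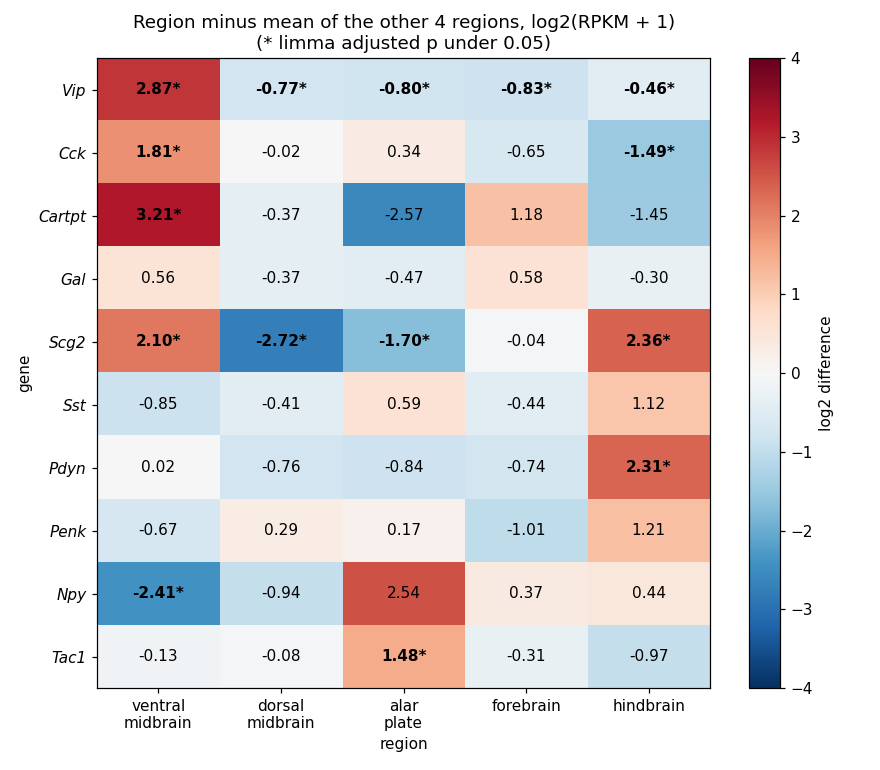
Log2(RPKM + 1) difference of each region (columns) from the mean of the other 4, for the 10 peptide genes (rows), with red for higher and blue for lower and asterisks at a limma adjusted p under 0.05. The largest called difference is 3.21 for Cartpt in ventral midbrain, and Scg2 is called in 4 of the 5 regions. The asterisks of Vip follow from the filter.

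Summed over the 10 genes, peptide RPKM was 114 to 137 in ventral midbrain, 37.5 to 57.5 in dorsal midbrain, 72.3 to 91.3 in alar plate, 24.8 to 111 in forebrain and 92.2 to 175 in hindbrain. Scg2, Sst and Cartpt supplied 43.5% to 88.4% of that sum in every library. The median log2 difference of the 10 genes was 0.29 in ventral midbrain, -0.39 in dorsal midbrain, -0.15 in alar plate, -0.38 in forebrain and 0.07 in hindbrain. Over all genes tested the medians were -0.02, 0.05, -0.01, -0.03 and -0.01 in the same order. Vip is among the 10 genes, and the filter had fixed that it differed. With Vip set aside, the middle gene in ventral midbrain was Pdyn, at 0.02, so the 0.29 there counts as no support.

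The neuropeptide receptors were called most often in ventral midbrain and dorsal midbrain. Of 23 receptor genes, 8 passed the filter. In ventral midbrain 5 of the 8 were called higher (7.43% of all genes) and none lower, namely Tacr1, Cckar, Npy1r, Adcyap1r1 and Sstr1. Cckar passed the filter through ventral midbrain and hindbrain alone, and Npy1r mainly through ventral midbrain. Their higher calls there count as no support. In hindbrain 4 were called higher (4.03% of all genes), in alar plate 3 lower (3.41%), in forebrain 1 lower (2.3%), and in dorsal midbrain 5 lower (13.8%) and 1, Vipr2, higher (18.2%). The median log2 difference of the 8 was 1.07 in ventral midbrain and -0.83 in dorsal midbrain. Cckar and Npy1r are among the 8, so these medians and the counts of lower genes are not free of the filter either. Apart from these genes, Adcyap1r1, Tacr1, Sstr1 and Sstr2 were called lower in dorsal midbrain.

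Enzymes that mature the precursors were called higher in ventral midbrain for 4 of 11 tested (7.43% of all genes), with none lower. Pam, which amidates peptide ends, had 37.3, 36.1 and 33.3 RPKM in ventral midbrain, against 9.79 to 22.8 RPKM in the other 12 libraries (log2 difference 1.08 ± 0.11, SE; limma adjusted p = 1.89e-05). Pcsk6, a convertase, had 5.77, 5.94 and 4.69 RPKM in ventral midbrain, against at most 2.21 RPKM elsewhere (1.70 ± 0.10, adjusted p = 2.49e-07). Furin and Cpd were higher by 0.46 and 0.43. In dorsal midbrain Cpe, the main carboxypeptidase of peptide maturation, was lower by -0.50, and Pcsk2, a neuroendocrine convertase, was higher by 0.56. The counts were 3 higher and 3 lower in dorsal midbrain (18.2% and 13.8% of all genes), 4 lower in alar plate (3.41%), 1 lower in forebrain (2.3%) and 1 higher in hindbrain (4.03%).

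Of 8 tested genes of dense core vesicles, 2 were called higher in ventral midbrain (7.43% of all genes), 4 lower in dorsal midbrain (13.8%), 1 lower in alar plate (3.41%), 1 higher in forebrain (0.618%) and 1 higher in hindbrain (4.03%). Cadps2, which primes vesicles for release, had 6.14, 5.37 and 5.82 RPKM in ventral midbrain, against at most 2.42 RPKM elsewhere (log2 difference 1.62 ± 0.20, SE; limma adjusted p = 0.000127). The other was Slc18a2, the vesicular monoamine transporter (2.67 ± 0.43, adjusted p = 0.00118). Of 9 tested peptidases that degrade neuropeptides, Ece2 and Nln were higher in ventral midbrain by 0.64 and 0.38 (7.43% of all genes). In dorsal midbrain 2 were higher and 1 was lower (18.2% and 13.8% of all genes).

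Among 48 entries of a list of other neuropeptides, 33 did not pass the filter, and 15 were tested. Pnoc, the precursor of nociceptin, was lowest in ventral midbrain, where Vip and Cck were highest. It had 0.884, 1.89 and 1.61 RPKM in ventral midbrain, against 24.0, 32.7 and 29.8 in dorsal midbrain, 21.7, 18.2 and 19.2 in alar plate, 12, 16.1 and 12.1 in forebrain, and 8.30, 16.7 and 14.0 in hindbrain. Its log2 difference was -2.94 ± 0.18 in ventral midbrain, 1.58 ± 0.18 in dorsal midbrain and 0.93 ± 0.18 in alar plate (SE; limma adjusted p = 3.18e-07, 0.000154 and 0.0109). Iapp, the amylin gene, had 3.91, 2.58 and 2.81 RPKM in ventral midbrain, against at most 1.03 RPKM elsewhere, and was listed at 0 in all hindbrain libraries. It passed the filter mainly through ventral midbrain, so its call there counts as no support. Nts, the neurotensin gene, was higher in ventral midbrain by 0.58, at 0.606 to 1.52 RPKM. The third entry called higher there, Ecel1 (2.62), encodes a metallopeptidase and not a peptide. It was also called lower in dorsal midbrain and higher in hindbrain (-2.36 and 1.30). Nxph4, another entry that is not a neuropeptide gene, was tested and called in no region (limma adjusted p 0.245 to 0.615). Pnoc was the one entry called lower in ventral midbrain, and 1 entry was higher and 2 lower in dorsal midbrain (18.2% and 13.8% of all genes), 1 higher in alar plate (1.24%) and 1 higher and 1 lower in hindbrain (4.03% and 2.27%), Ecel1 included.

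**Figure D4:**
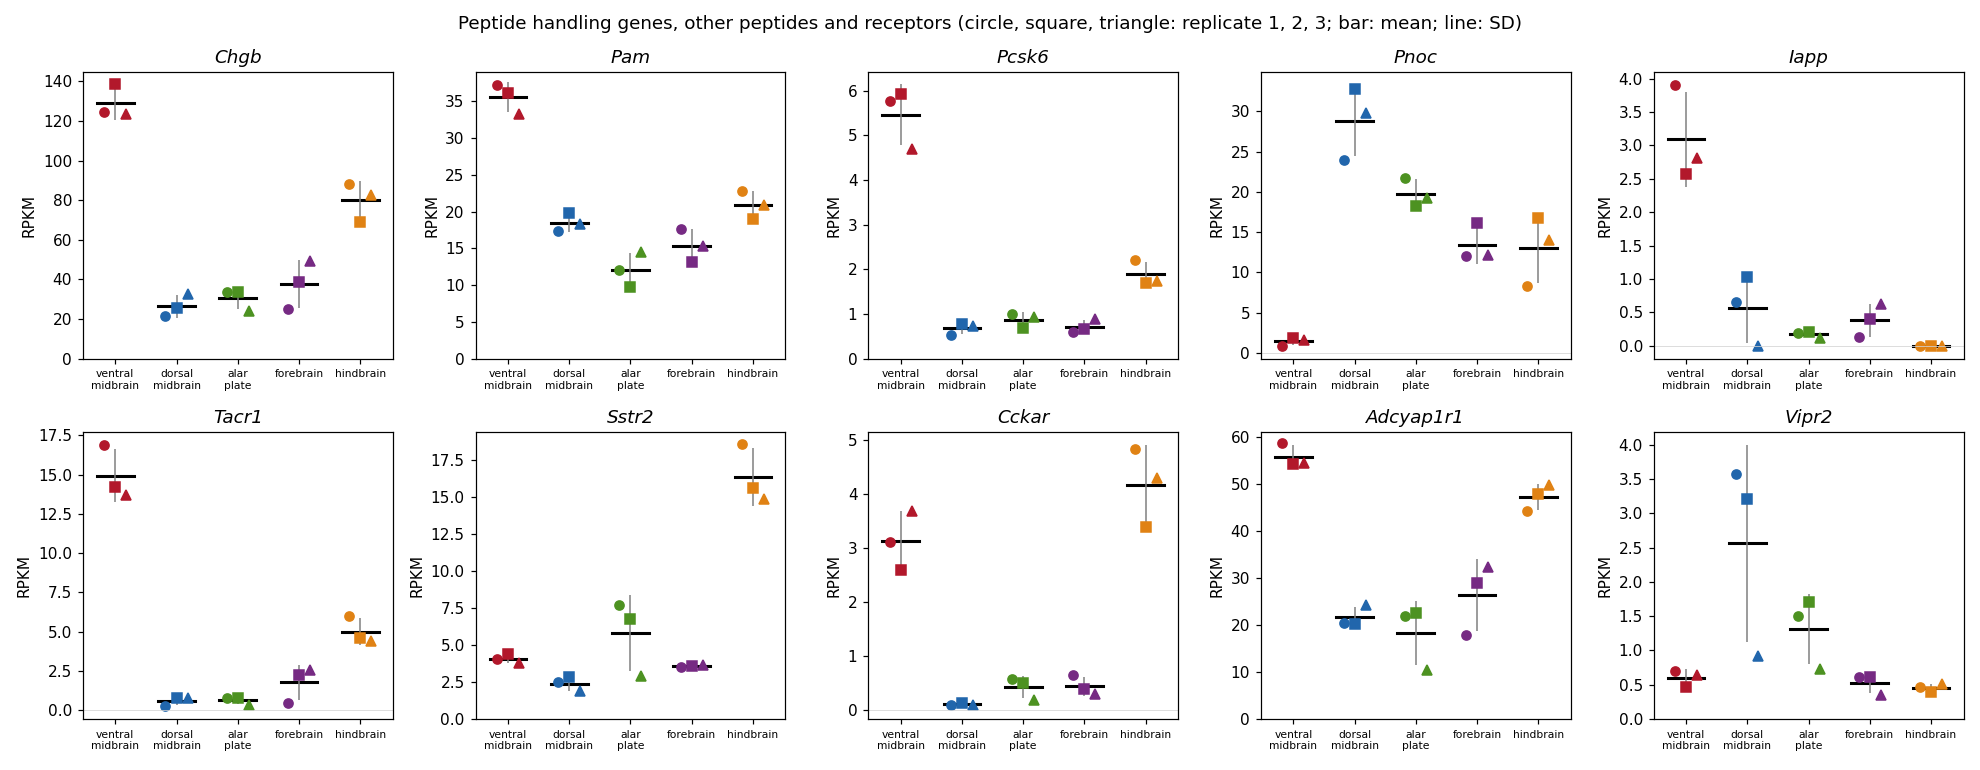
RPKM (vertical axis, one scale per gene) of Chgb, Pam, Pcsk6, Pnoc, Iapp, Tacr1, Sstr2, Cckar, Adcyap1r1 and Vipr2 in the 15 libraries by region. Points are libraries, with circle, square and triangle for replicate 1, 2 and 3, horizontal bars are means and vertical lines SDs. Tacr1 and Pcsk6 are highest in ventral midbrain, Sstr2 is highest in hindbrain, and Pnoc is lowest in ventral midbrain.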

How the data were processed

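The authors deposited 1 table of RPKM values (reads scaled for gene length and library reads), with 1 column per library. Per the submitters' processing notes, reads were aligned with Bowtie to mm9. The sources used here do not give the annotation, counting or use of strand, so genes that overlap others are uncertain. Whole reads were recovered from the RPKM steps for 16601 of 16612 genes above 0 in at least 10 libraries (99.9%; tolerance 0.02 to 0.15 reads) and served to state depth, with no count test. Detection floors cover counting error only. RPKM summed to 374280 to 390992 per library, and to 489420 in alar plate 3.

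Log2(RPKM + 1) values of 13745 genes at 1 RPKM or more in at least 3 libraries were fitted with limma 3.58.1 (R 4.3.3, variance trend) on all 15 libraries. The code was also run on simulated counts. That simulation held no divergent library and no changed gene with few reads, so it does not bear on those. Tests were two-sided, and Benjamini-Hochberg adjustment ran within each comparison over all genes tested, with calls at an adjusted p under 0.05. Fold changes on this scale understate the change of weak genes. The 10 genes, the gene lists and the tests were chosen with earlier results of these data known. The rule for named genes took all 10 members, the 3 genes most correlated with each, up to 3 called genes of each list and region, and receptors. A few genes that fall under this rule or mark a region are not reported here.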

Additional observations from a re-analysis of the deposited data

How the results depend on the processing

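Over the 22 differences of single peptide genes that were followed, 535 values under alternatives (pseudocounts 0.1 and 0.5, no filter or a filter of 5 RPKM, quantile or median-ratio scaling, library weights, a replicate block, and libraries left out) gave 485 on the same side of the threshold, 28 no longer past it, 22 newly past it and 0 of opposite sign. Vip differences are among these, though they count as no support. They have no value where a ventral midbrain library was left out, as Vip then missed the filter. The counts of called genes moved more. Against the other 4 regions they were 5 in ventral midbrain (10.6% of all genes), 2 in dorsal midbrain (32%), 3 in alar plate (4.66%), 1 in forebrain (2.92%) and 4 in hindbrain (6.3%). With library weights they were 7 in ventral midbrain (44.6%), 8 in dorsal midbrain (76.9%), 7 in alar plate (16.4%), 4 in forebrain (49.1%) and 9 in hindbrain (53%), with 10 in the F test (84.7%), 62 calls over pairs of regions and 54 pathway genes, against 25 and 35. Without dorsal midbrain 3, forebrain 1 and alar plate 3 they were in the same order 7 (33.5%), 7 (64.5%), 6 (12.3%), 4 (43.7%) and 7 (37.8%), with 49 calls over pairs. Also without hindbrain 1, added with the data known, they were 7 (37%), 7 (67%), 7 (16.4%), 4 (45.4%) and 7 (40.8%), with 54 calls over pairs. With the filter of 5 RPKM the forebrain count was 0 (2.06%). The cause was not tested.

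Leaving out 1 library at a time gave 4 to 8 genes in the F test (17.2% to 56.7% of all genes), 2 to 6 in ventral midbrain (5.05% to 19.6%), 1 to 5 in dorsal midbrain (8.3% to 53.3%), 2 to 6 in alar plate (2.83% to 12.9%), 0 to 2 in forebrain (0.518% to 8.34%), 2 to 5 in hindbrain (2.32% to 14.6%), 17 to 35 over pairs and 23 to 43 pathway genes. Without any ventral midbrain library the F test count was 4 and the ventral midbrain count 2 (Cck and Scg2), since Vip then left the filter and Cartpt and Npy missed the threshold, and the dorsal midbrain and forebrain counts were 1 and 0. Without dorsal midbrain 3 the dorsal midbrain count was 5 and the forebrain count 2, without forebrain 1 the alar plate count was 6 and the forebrain count 2, without hindbrain 3 the hindbrain count was 2, and without dorsal midbrain 1 there were 23 pathway genes.

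The fit of all 15 libraries did not pair them by replicate number, and the labels leave unstated whether the numbers pair them. Deviations of libraries with the same number correlated at -0.18 to 0.40 (median 0.24, against -0.10 for other numbers). For 10 of 15 libraries, the mean correlation with libraries of other regions was highest for those of their own number. This is a hint from the data and not the design. With the replicate block the ventral midbrain count was 4 (11%), as Npy missed the threshold, the forebrain count 2 (4.1%), the hindbrain count 6 (7.21%) and the F test count 9 (35%). Depth limits Vip outside ventral midbrain, Gal and the lowest Npy and Cck values, which rest on few reads.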
